A study of Mus musculus with 7 samples.

Results

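The genes described here are 50 p53 targets and apoptosis regulators, given as a list of gene symbols, in myoblasts, the dividing precursors of skeletal muscle fibres. Of these 50 genes, 48 were measured among 18193 genes, each by its brightest probe set on an Affymetrix mouse expression array. For Trp53, which encodes p53 itself, and for Bax, no probe set was paired with the symbol, so both are not analysed here. All samples were labelled as myoblasts of C57BL/6 mice. The 3 wild type samples were all female, and the 4 samples from HMGA2 -/- mice (Hmga2 KO) comprised 2 males, replicates 1 and 3, and 2 females, replicates 2 and 4. Hmga2 encodes an architectural protein of chromatin with affinity for AT-rich DNA, found mostly in embryos and precursor cells, and the labels record no treatment of either genotype. The labels give no age of the mice, no passage of the cells and no way of isolation. They call the samples biological replicates without saying that each is a separate mouse. The p-values therefore set the difference between genotypes against the spread between these samples. The question is which transcripts of the p53 and apoptosis machinery differ with the loss of Hmga2.

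As background, p53 is a transcription factor that is held low by the ubiquitin ligase Mdm2 and the inhibitor Mdm4 and accumulates after DNA damage and other stress. Its targets stop the cell cycle, repair DNA or start apoptosis. In the mitochondrial branch of apoptosis, BH3-only proteins such as Pmaip1 (Noxa), Bbc3 (Puma) and Bid release the pore-forming proteins Bax and Bak1 from survival proteins such as Bcl2, Bcl2l1 (Bcl-xL) and Mcl1, after which Apaf1 assembles the apoptosome. In muscle, the same genes are known from the arrest and the cell loss that accompany the differentiation of myoblasts.

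Of the 48 measured genes, 34 had a mean intensity above 1000, on arrays that shared the same median over all probe sets and whose lowest values were 33.2 to 36.7. Hmga2 itself stood at 11599 ± 1443 (SD, n = 3) in the wild type samples and at 95.8 ± 7.7 (SD, n = 4) in the knockouts (exact two-sided permutation test over 35 splits, p = 0.0286, the smallest this design can give). Muscle origin was borne out by the myoblast markers Myod1 and Myog, with mean intensities of 15351 and 19212 in wild type and 14760 and 17184 in Hmga2 KO. Of all 9 myoblast markers, 4 lay above and 5 below the median difference of all genes. Chrna1, at a log2 difference of -0.29, had the only unadjusted p under 0.05 among them (limma). The 14 markers of differentiated muscle had a median intensity of 1967, so the markers do not show dividing precursors alone. The 3' signal of the Actb control over its 5' signal was highest in wild type replicate 2, at 1.94 against 1.61 to 1.74. No marker gene of another cell type or state passed an adjusted p under 0.05 (limma), but some lists lay mostly in a single direction. All 14 measured markers of differentiated muscle lay below the median difference of all genes and 9 had an unadjusted p under 0.05, with summed intensities of 43484 to 65007 in wild type and 18477 to 49878 in Hmga2 KO, lowest in Hmga2 KO replicate 1. Of 12 cell division genes, all lay below that median and 5 had an unadjusted p under 0.05, with sums of 39543 to 50163 in wild type and 35861 to 41200 in Hmga2 KO. Of 9 fibroblast genes, 8 lay above it and 4 had an unadjusted p under 0.05, with sums of 13270 to 13387 against 15581 to 17090, while the fibroblast markers Lum and Dpt were near the lowest intensities in both genotypes. Of 5 smooth muscle and pericyte genes, 2 had an unadjusted p under 0.05, in opposite directions (Rgs5 at a log2 difference of 1.72 and Abcc9 at -1.01), with sums of 16134 to 23927 in wild type and 17943 to 26221 in Hmga2 KO. The brightest mean was 122 among the leukocyte markers, 99.1 among the endothelial, 102 among the adipocyte and 140.0 among the Schwann cell markers. The part of these markers in the results below was not tested, and in bulk samples fewer cells of a type and less RNA per cell cannot be told apart.

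No measured gene of the set passed the test between genotypes at an adjusted p under 0.05 (limma with Benjamini-Hochberg adjustment over all genes), a threshold that 0.0275% of all genes passed. At an unadjusted p under 0.05 there were 7 genes, or 14.6% of the 48, against a background of 13.3% of all genes, so the share is close to the background. In Hmga2 KO, 6 were higher (12.5% of the set, background 2.99%), namely the p53 inhibitor Mdm4, the antiproliferative gene Btg2 and the death-promoting genes Pmaip1, Fas, Trp53inp1 and Apaf1, and 1 was lower (2.08%, background 10.3%), the death-promoting gene Bid. Among all genes outside the dimmest 40%, where 45 of the 48 lie, the background was 3.43% higher and 13.8% lower. The 3 wild type and 4 Hmga2 KO values did not overlap for 8 genes, or 16.7% (background 11.7%). Of these, 6 were higher in Hmga2 KO (12.5%, background 2.37%), Mdm2, Mdm4, Btg1, Btg2, Pmaip1 and Apaf1, and 2 were lower (4.17%, background 9.29%), Plk3 and Bid.

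The median log2 difference of the 48 genes, Hmga2 KO minus wild type, was -0.005, against -0.07 for all genes, and 34 of them (70.8%) lay above the median of all genes, a line that 50% of all genes exceed by definition. When the arrays were set to equal medians over the genes tested, the median of all genes moved from -0.07 to 0.04 and the background turned to 7.31% higher and 3.44% lower at an unadjusted p under 0.05. Under that scaling 12 genes of the set had an unadjusted p under 0.05, 11 higher and 1 lower, and again no gene passed the adjusted threshold. In the 5 females alone there were 5 genes of the set, 4 higher and 1 lower. Of all 18193 genes, 402 were higher and 844 lower there (6.85% in both directions). Without wild type replicate 2 and Hmga2 KO replicate 1 there were 8 of the set, 6 higher and 2 lower. Of all genes, 657 were then higher and 1571 lower (12.2% in both directions). The plot of differences by role shows each gene beside the median of all genes.

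**Figure D1:**
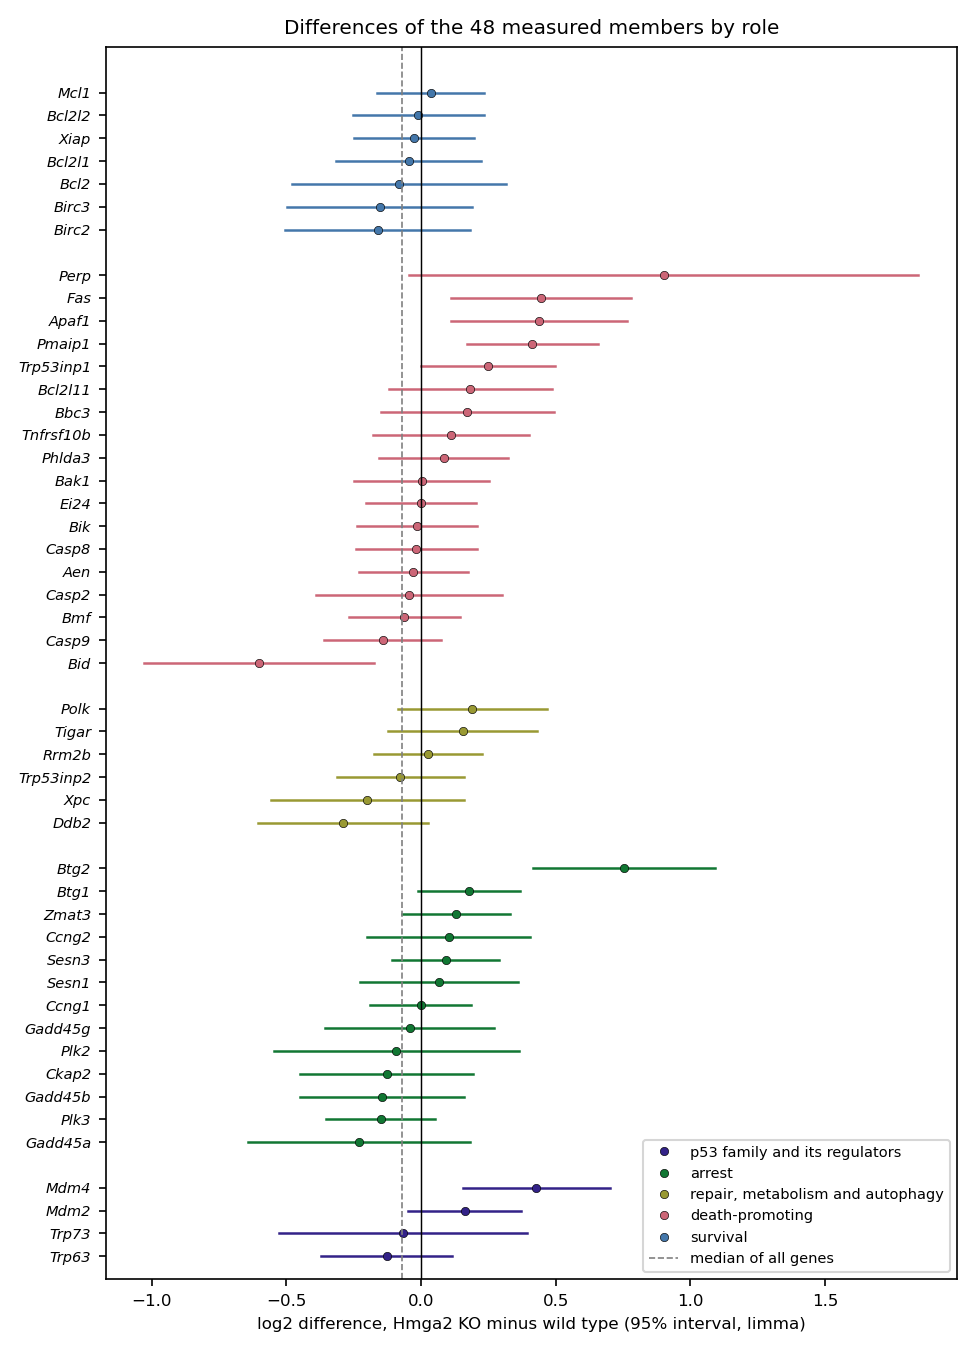
Log2 difference between Hmga2 KO and wild type (horizontal axis, points, with the 95% interval from limma as lines) for each of the 48 measured genes, grouped and coloured by role; the solid line marks 0 and the dashed line the median of all genes, -0.07. Btg2 at 0.75, Mdm4 at 0.43 and Pmaip1 at 0.41 lie to the right with intervals above 0, Bid at -0.60 lies to the left, and the survival genes lie between -0.16 and 0.04.

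Promoters of RefSeq (assembly GRCm38.p6), read as the 250 bases before the transcription start, were found for 40 of the 50 genes. They were searched on both strands for the decamer consensus that p53 binds as a pair of copies, and for TGACGTCA, the cyclic AMP response element, a motif that was added after the Btg2 sequence had been read. The promoters of 3 genes are printed to show where the searched letters lie: Btg2, which had the smallest p of the set, Mdm2, the feedback target of p53, and Ccng1, a p53 target with nearly equal means in both genotypes. They lie at chr1:134079156-134079405, chr10:117710759-117711008 and chr11:40755287-40755536, each on the minus strand, and are written 5′ to 3′ towards the start. Capitals mark the TGACGTCA match in Btg2, which begins 166 bases before the start, and the decamer in Mdm2 and Ccng1, which begins 186 and 185 bases before it.
Btg2: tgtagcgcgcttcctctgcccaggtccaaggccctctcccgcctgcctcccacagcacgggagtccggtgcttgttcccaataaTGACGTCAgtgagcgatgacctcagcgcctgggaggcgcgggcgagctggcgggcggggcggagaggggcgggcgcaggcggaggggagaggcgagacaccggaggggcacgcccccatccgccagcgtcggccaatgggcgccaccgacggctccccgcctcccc
Mdm2: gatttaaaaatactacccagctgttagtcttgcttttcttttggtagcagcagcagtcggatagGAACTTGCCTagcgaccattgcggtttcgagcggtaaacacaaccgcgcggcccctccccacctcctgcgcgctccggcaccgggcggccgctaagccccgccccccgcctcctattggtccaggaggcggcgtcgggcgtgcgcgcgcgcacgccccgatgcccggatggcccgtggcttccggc
Ccng1: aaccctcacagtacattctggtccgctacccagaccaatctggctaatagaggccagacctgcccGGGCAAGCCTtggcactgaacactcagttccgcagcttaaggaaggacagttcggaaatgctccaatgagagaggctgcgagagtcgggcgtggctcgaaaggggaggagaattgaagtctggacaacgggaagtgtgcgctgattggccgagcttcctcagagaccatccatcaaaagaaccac
The decamer occurred in 11 of the 40 genes (27.5%), against 8.2% of the 27025 genes with a promoter in that table. TGACGTCA occurred in 4 of 40 (10%), against 1.77%, but the match in Btg2 prompted that search, so the 2 shares cannot be compared. Its carriers had log2 differences of 0.75 for Btg2, -0.16 for Birc2, -0.09 for Plk2 and -0.08 for Trp53inp2. The 9 measured genes with the decamer, Aen, Bmf, Ccng1, Ckap2, Ei24, Gadd45a, Mdm2, Polk and Sesn1, had log2 differences of -0.23 to 0.19 with a median of -0.001, and the 29 measured genes with a promoter but no decamer had a median of -0.02. A match describes these letters only, and Trp53 and Bax hold the other matches.

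Among the p53 family and its regulators, both inhibitors of p53 were higher in every Hmga2 KO sample than in any wild type sample, without passing the adjusted threshold. Mdm4, which covers the activation domain of p53, had intensities of 1710, 1800.0 and 1847 in wild type replicates 1 to 3 and of 2062, 2205, 2722 and 2680 in Hmga2 KO replicates 1 to 4. All 4 Hmga2 KO values exceeded the wild type values, with replicates 3 and 4 the highest. The log2 difference was 0.43 (SE 0.12, 95% interval 0.15 to 0.70), a 1.34-fold difference (limma, Benjamini-Hochberg adjusted p = 0.284). Mdm2, the ligase that marks p53 for degradation and is itself a p53 target, had intensities of 8250, 7985 and 8142 in wild type and of 9959, 8404, 9367 and 8702 in Hmga2 KO. The wild type values lay close together and below all Hmga2 KO values, the nearest of which was the female replicate 2. The log2 difference of Mdm2 was 0.16 (SE 0.09, 95% interval -0.05 to 0.37, limma adjusted p = 0.470). In females alone it was 0.07 for Mdm2 (unadjusted p = 0.538 in limma) and 0.445 for Mdm4 (unadjusted p = 0.0111 in limma). Trp63 and Trp73, the other transcription factors of the family, had log2 differences of -0.13 (95% interval -0.37 to 0.12) and -0.07 (-0.53 to 0.40), and Trp73 was among the dimmest 40% of genes.

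**Figure D2:**
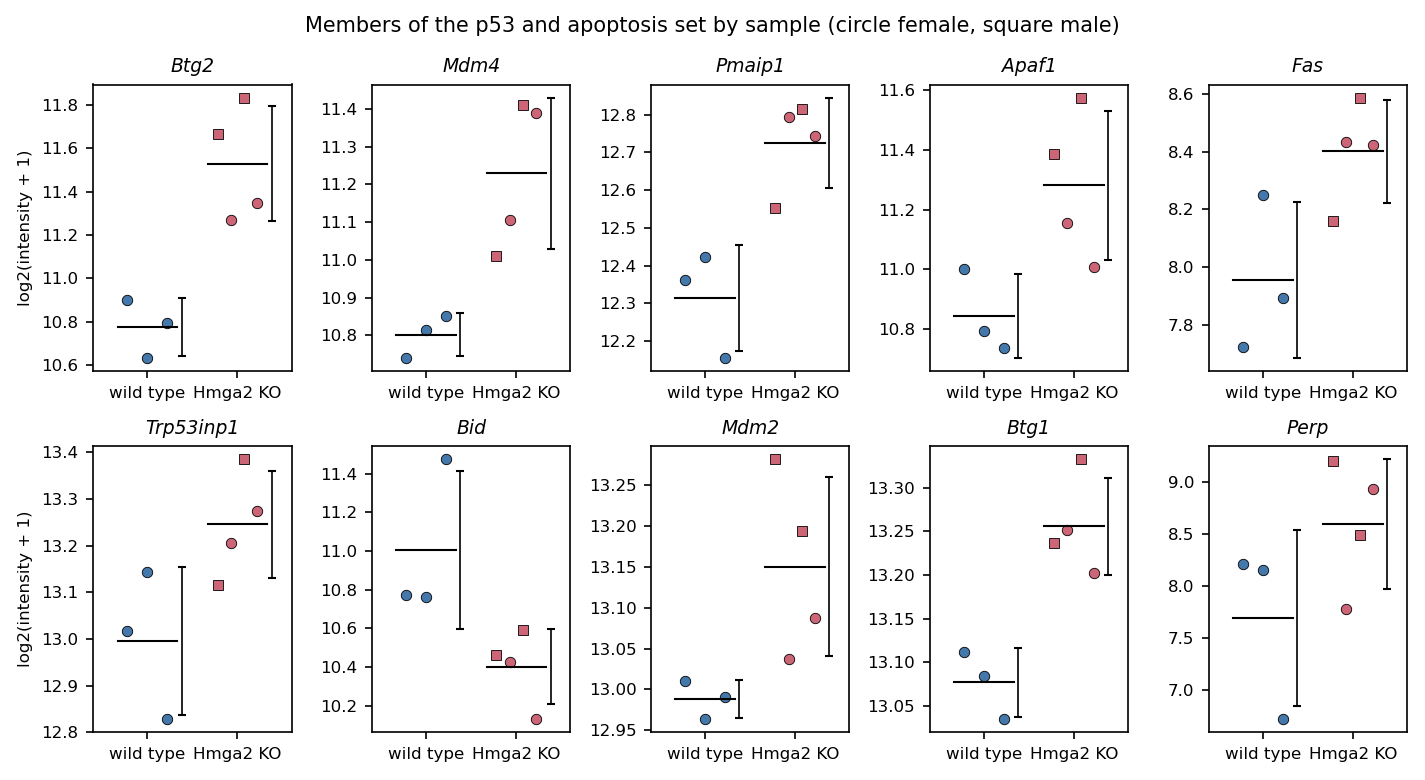
Log2(intensity + 1) of 10 genes of the set in each sample (points, circles female and squares male; blue wild type, red Hmga2 KO), with the mean of each genotype as a line and its SD as a bar. The Hmga2 KO points lie above all wild type points for Btg2, Mdm4, Pmaip1, Apaf1, Mdm2 and Btg1 and below them for Bid, and the genotypes overlap for Fas, Trp53inp1 and Perp.

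Of the 13 genes of growth arrest, Btg2 had the largest difference and the only unadjusted p under 0.05. Btg2, an antiproliferative protein that is a direct p53 target, had intensities of 1908, 1587 and 1775 in wild type and of 3245, 2470, 3649 and 2606 in Hmga2 KO. All Hmga2 KO values lay above the wild type values, and the males, replicates 1 and 3, were the highest. Its log2 difference was 0.75 (SE 0.15, 95% interval 0.42 to 1.09), a 1.69-fold difference with an unadjusted p of 0.000689 (limma, adjusted p = 0.201). In females alone the difference was 0.53 (unadjusted p = 0.00387 in limma). Males exceeded females among the Hmga2 KO samples by 0.44 on the log2 scale (limma, unadjusted p = 0.0122, adjusted p = 0.588).

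Btg1, the closest relative of Btg2, had intensities of 8854, 8682 and 8388 in wild type and of 9653, 9753, 10318 and 9422 in Hmga2 KO. The genotypes did not overlap, although the gap was small, and the log2 difference was 0.18 (SE 0.08, limma adjusted p = 0.395). Plk3, a polo-like kinase of the stress response, had intensities of 196, 185 and 189.6 in wild type and of 173, 173, 158 and 183 in Hmga2 KO. It was lower in every Hmga2 KO sample, by 0.15 on the log2 scale (95% interval -0.35 to 0.05). Gadd45a, a stress-inducible arrest and repair protein, had intensities of 8573, 10145 and 8974 in wild type and of 5540.1, 9949, 8489 and 8077 in Hmga2 KO. The genotypes overlapped, with Hmga2 KO replicate 1 far below the rest, and the log2 difference was -0.23 (95% interval -0.64 to 0.18). Without wild type replicate 2 and Hmga2 KO replicate 1, Gadd45a differed by 0.005 on the log2 scale, in the other direction.

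The other 9 arrest genes had log2 differences between -0.145 and 0.13. Ccng1, a G-type cyclin and p53 target, had mean intensities of 15646 ± 596 (SD, n = 3) for wild type and 15626 ± 385 (SD, n = 4) for the knockouts, with a 95% interval of the log2 difference of -0.19 to 0.19. Its relative Ccng2 differed by 0.10. The sestrins Sesn1 and Sesn3, which restrain growth signalling under stress, differed by 0.07 and 0.09, and Zmat3, a zinc finger RNA-binding protein, by 0.13. Gadd45b and Gadd45g differed by -0.145 and -0.04, the kinase Plk2 by -0.09 and the spindle protein Ckap2 by -0.13. The class as a whole had a median of -0.001, and 8 of its 13 genes lay above the median of all genes (background 50%). Btg2 alone, 7.69% of the class, had an unadjusted p under 0.05 (background 13.3%).

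The 6 genes of repair, metabolism and autophagy had a median log2 difference of -0.025 and none had an unadjusted p under 0.05. Ddb2, which recognises ultraviolet damage in nucleotide excision repair, had intensities of 1334, 1311 and 1815 in wild type and of 1075, 1355, 1138 and 1260 in Hmga2 KO. Wild type replicate 3 was the highest, and the genotypes overlapped at a log2 difference of -0.29 (95% interval -0.61 to 0.03), which was -0.14 without wild type replicate 3. Xpc, a damage sensor of the same repair pathway, had intensities of 356, 507 and 419.9 in wild type and of 345, 468, 334 and 342 in Hmga2 KO. Replicate 2 was the highest in each genotype, and the log2 difference was -0.20 (95% interval -0.56 to 0.16), which was -0.07 without wild type replicate 2, -0.32 without wild type replicate 1 and -0.31 without Hmga2 KO replicate 2. Polk, a DNA polymerase that copies past lesions, differed by 0.19, and Tigar, which lowers glycolytic flux, by 0.15, although its 2 dimmer probe sets differed in the other direction. Rrm2b, a p53-inducible subunit of ribonucleotide reductase, differed by 0.03, and Trp53inp2, an autophagy factor, by -0.08.

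Of the 18 measured death-promoting genes, 16 lay above the median of all genes (background 50%), and the class median was 0.04. At an unadjusted p under 0.05 there were 5 (27.8%, background 13.3%), 4 higher and 1 lower (backgrounds 2.99% and 10.3%). In females alone 12 lay above the median of all genes, and the class median was -0.01 against -0.05 for all genes. Without wild type replicate 2 and Hmga2 KO replicate 1, 13 lay above it, and the class median was -0.03 against -0.075. Among the BH3-only genes, Pmaip1 and Bid lay in opposite directions. Pmaip1 (Noxa), which binds and removes Mcl1, had intensities of 5262, 5489 and 4559 in wild type and of 6005, 7102, 7202 and 6856 in Hmga2 KO. All Hmga2 KO values were higher, and the male replicate 1 was the lowest of them. The log2 difference was 0.41 (SE 0.11, 95% interval 0.17 to 0.66), a 1.33-fold difference (limma, adjusted p = 0.259). Bid, which carries the signal of death receptors to mitochondria, had intensities of 1749, 1736 and 2846 in wild type and of 1412, 1373, 1540.1 and 1119 in Hmga2 KO. It was lower in every Hmga2 KO sample, and wild type replicate 3 stood far above the other two. The log2 difference was -0.60 (SE 0.19, 95% interval -1.03 to -0.18), so the level was 1.52-fold higher in wild type (limma, adjusted p = 0.293). Without wild type replicate 3 the difference of Bid was -0.37.

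Bbc3 (Puma), the other BH3-only gene most closely tied to p53, had intensities of 251, 359 and 304 in wild type and of 295, 333, 388 and 349 in Hmga2 KO. The genotypes overlapped, and the log2 difference was 0.17 (95% interval -0.15 to 0.49). It was 0.04 without wild type replicate 1, 0.30 without wild type replicate 2 and 0.11 without Hmga2 KO replicate 3. Bcl2l11 (Bim), which responds to loss of growth factors, differed by 0.18, while Bmf and Bik differed by -0.06 and -0.01, with Bik among the dimmest 40% of genes. Bak1, the pore-forming protein, differed by 0.00 with a 95% interval of -0.25 to 0.25.

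The death receptors and the genes that act after them gave the next set of differences. Fas, the receptor of Fas ligand, had intensities of 210.3, 304 and 237 in wild type and of 285, 345, 384 and 342 in Hmga2 KO. Wild type replicate 2 lay above Hmga2 KO replicate 1, so the genotypes overlapped, and the log2 difference was 0.45 (SE 0.15, limma adjusted p = 0.298). Without wild type replicate 1 the difference of Fas was 0.33, with an unadjusted p of 0.0665 in limma. Tnfrsf10b, the mouse receptor of the ligand Trail, differed by 0.11 (95% interval -0.18 to 0.40). Apaf1, the scaffold of the apoptosome, had intensities of 2050.0, 1774 and 1706 in wild type and of 2676, 2279, 3047 and 2060.5 in Hmga2 KO. The genotypes were only just apart, since Hmga2 KO replicate 4 lay beside wild type replicate 1, and the male replicates 1 and 3 were the highest. The log2 difference was 0.44 (SE 0.14, limma adjusted p = 0.298), and males exceeded females among the Hmga2 KO samples by 0.40 (limma adjusted p = 0.670). In females alone Apaf1 differed by 0.24, with an unadjusted p of 0.118 in limma. The initiator caspases Casp2, Casp8 and Casp9 differed by -0.04, -0.02 and -0.14.

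Among the other p53 targets that promote death, Perp had the largest log2 difference of the 48 genes and the widest interval. Perp, a membrane protein of cell junctions, had intensities of 295, 284 and 104 in wild type and of 586, 218, 357 and 487 in Hmga2 KO. Hmga2 KO replicate 2 lay below 2 wild type samples, and wild type replicate 3 was the lowest of all. The log2 difference was 0.90 (SE 0.42, 95% interval -0.04 to 1.85, limma adjusted p = 0.393), and without wild type replicate 3 it was 0.41. Trp53inp1, a stress protein that enhances p53 activity, had intensities of 8283, 9043 and 7267 in wild type and of 8869, 9448, 10701 and 9910 in Hmga2 KO. The genotypes overlapped at Hmga2 KO replicate 1, and the log2 difference was 0.25 (SE 0.11, limma adjusted p = 0.374). It reached an unadjusted p of 0.0490 in limma with all samples, but 0.120 without Hmga2 KO replicate 3 and 0.112 in females alone. Phlda3, an inhibitor of Akt, differed by 0.08, the nuclease Aen by -0.03 and Ei24, a protein of the endoplasmic reticulum, by 0.00.

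The 7 survival genes showed the narrowest range of the classes, with log2 differences of -0.16 to 0.04, a median of -0.045 and none with an unadjusted p under 0.05. On the brightest probe sets and the intensities as deposited, all 95% intervals of these genes lay within -0.51 and 0.32, a difference of at most 1.42-fold. Dimmer probe sets had intervals beyond these bounds, such as -0.31 to 1.09 for Bcl2l1, -0.44 to 0.835 for Bcl2 and -0.60 to -0.04 for Xiap. Mcl1, the survival protein that Pmaip1 binds, had intensities of 6956, 7105 and 6928 in wild type and of 6725, 6933, 7601 and 7466 in Hmga2 KO. The genotypes overlapped, and the log2 difference was 0.04 (95% interval -0.16 to 0.23). Bcl2 had intensities of 593, 432 and 592 in wild type and of 672, 440.4, 481 and 453 in Hmga2 KO, and Hmga2 KO replicate 1 was the highest of all 7. Its log2 difference was -0.08 (95% interval -0.48 to 0.32), which became 0.03 with equal medians. Bcl2l1 (Bcl-xL) had intensities of 3240.3, 2649 and 3078 in wild type and of 3401, 2676, 2711 and 2812 in Hmga2 KO. The genotypes overlapped throughout, at a log2 difference of -0.045 (95% interval -0.32 to 0.22), which became 0.07 with equal medians.

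The inhibitors of apoptosis proteins lay in the same narrow band. Birc2 had intensities of 746, 1048 and 884 in wild type and of 656, 946, 780.4 and 805 in Hmga2 KO, and the log2 difference was -0.16 (95% interval -0.51 to 0.18). Birc3, among the dimmest 40% of genes, had intensities of 148, 108 and 115 in wild type and of 123, 118, 87.7 and 117 in Hmga2 KO, at a log2 difference of -0.15 (95% interval -0.50 to 0.19). For both genes the genotypes overlapped. Xiap differed by -0.03 (95% interval -0.25 to 0.20), and Bcl2l2 (Bcl-w), a relative of Bcl2, by -0.01 (95% interval -0.25 to 0.235).

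**Figure D3:**
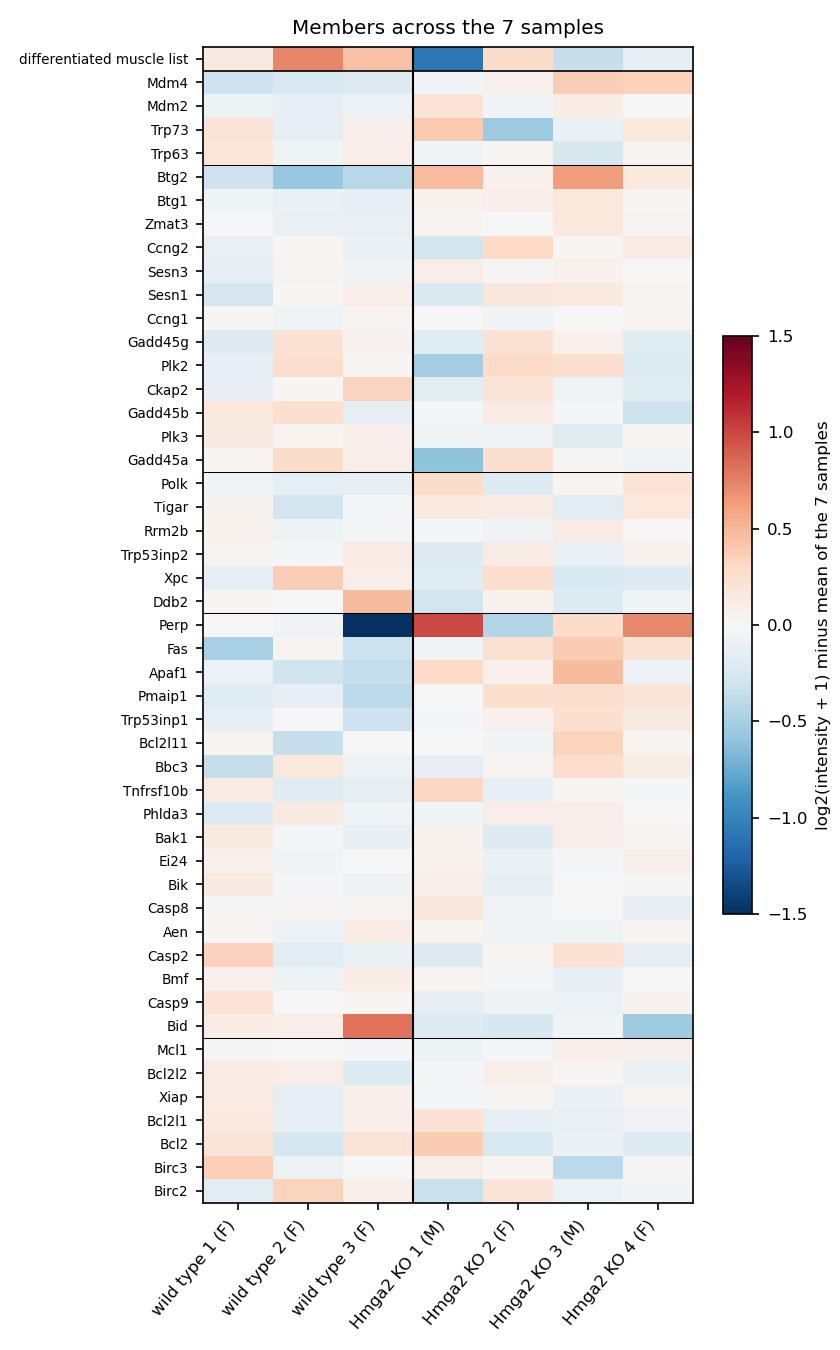
Log2(intensity + 1) minus the mean of the 7 samples (colour, blue lower and red higher) for the 48 measured genes in the 7 samples, in columns by genotype, replicate and sex (F, M), with the mean of the differentiated muscle markers on top. Hmga2 KO replicate 3 holds the highest value of 12 genes, among them Mdm4, Btg2, Pmaip1 and Apaf1, and wild type replicate 3 the lowest value of Perp.

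The values were spread unevenly over the samples. Hmga2 KO replicate 3, a male sample, had the highest of the 7 values for 12 of the 48 genes (25%), against 6.72% of all genes. These were Mdm4, Btg1, Btg2, Zmat3, Rrm2b, Pmaip1, Bbc3, Bcl2l11, Fas, Trp53inp1, Apaf1 and Mcl1, and they include all 6 genes that were higher at an unadjusted p under 0.05. This sample was singled out after its values had been seen. Without it, the log2 differences were 0.65 for Btg2, 0.37 for Mdm4, 0.38 for Pmaip1, 0.38 for Fas, 0.34 for Apaf1 and 0.20 for Trp53inp1, and the first 5 of these kept an unadjusted p under 0.05. Hmga2 KO replicate 1, the other male sample and the one with the lowest differentiated muscle markers, had the lowest value for 9 genes (18.8%), against 21.3% of all genes. Among the Hmga2 KO samples, males and females differed at an adjusted p under 0.05 for none of the 48 genes (limma; background 0.0385%) and at an unadjusted p under 0.05 for 2, Btg2 and Apaf1, both higher in males (background 6.3%).

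Where a gene had several probe sets, these served as further measurements of the same samples. The 48 genes had 119 probe sets, 33 genes had more than 1, and in 20 of these all probe sets differed in the same direction. None passed an adjusted p under 0.05 over all probe sets (limma). For Btg2 the dimmer probe set differed by 0.66 (95% interval 0.22 to 1.11), close to the 0.75 of the brightest. For Mdm4 all 4 probe sets were higher in Hmga2 KO, by 0.26 to 0.43, and for Bid all 3 were lower, by -0.42 to -0.60. Of the 71 dimmer probe sets, 6 were higher and 7 lower at an unadjusted p under 0.05 in limma, against 3.67% and 7.34% of the dimmer probe sets of all genes. Larger differences than on the brightest probe set were seen on dimmer ones for Mdm2, at 0.535 (95% interval 0.10 to 0.97), for Trp53inp1, at 0.885 (0.37 to 1.40), and for Btg1, at 1.13 (0.49 to 1.77). For these 3 genes the probe sets disagreed in size but not in direction. Dimmer probe sets with an interval below 0, beside a brightest one whose interval held 0, were found for Trp63, at -0.54 (95% interval -0.91 to -0.17) and -0.38 (-0.73 to -0.035), for Trp73, at -0.24 (-0.46 to -0.01), and for Xiap, at -0.32 (-0.60 to -0.04). In those of Trp63 and Trp73 the genotypes did not overlap, but these probe sets were dim. Their mean intensities were 164 and 68.6 for Trp63 and 66.6 for Trp73, on arrays whose lowest values were 33.2 to 36.7. In 13 genes the probe sets disagreed in direction. For Tigar the brightest differed by 0.15 and the dimmer ones by -0.18 and -0.35, the last with a 95% interval of -0.58 to -0.125 and without overlap. For Bcl2 and Bcl2l1 the differences ran from -0.08 to 0.20 and from -0.11 to 0.39, whereas the 6 probe sets of Mcl1 ranged from -0.005 to 0.11.

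**Figure D4:**
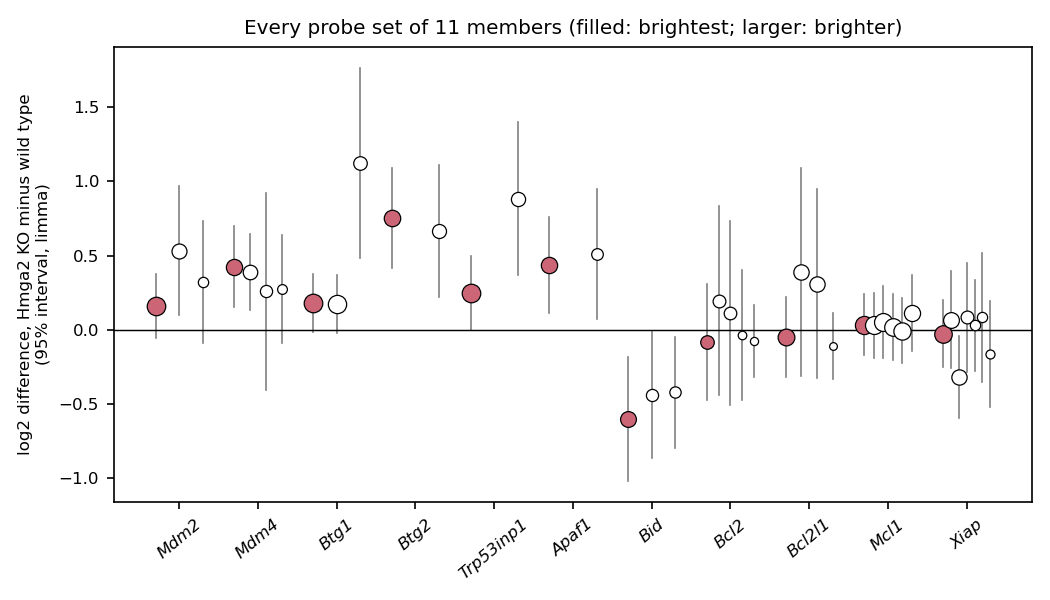
Log2 difference between Hmga2 KO and wild type (vertical axis, with the 95% interval from limma as lines) for every probe set of 11 genes; the brightest probe set of each gene is filled, and larger points are brighter. All points lie above 0 for Mdm2, Mdm4, Btg1, Btg2, Trp53inp1 and Apaf1 and below 0 for Bid, and they fall on both sides of 0 for Bcl2, Bcl2l1, Mcl1 and Xiap.

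A further 88 genes of the same pathways, of which 80 were measured, were examined beside the set. None passed an adjusted p under 0.05 (limma), and 18 had an unadjusted p under 0.05, 4 higher and 14 lower (backgrounds 2.99% and 10.3%). With equal medians the split was 9 higher and 5 lower (backgrounds 7.31% and 3.44%). Their median log2 difference was -0.07, equal to that of all genes at this rounding. The genotypes did not overlap for 15 of the 80 (18.8%, background 11.7%), 4 higher and 11 lower (backgrounds 2.37% and 9.29%).

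The list of the other Bcl2 family, of which 9 genes were measured, also holds the Bcl2-interacting genes Bnip1, Bnip2 and Bnip3. All 9 had a log2 difference below 0, as did 67.6% of all genes. Their median was -0.18, against -0.07 for all genes. Of the 9, 4 had an unadjusted p under 0.05 and 5 had genotypes that did not overlap, all lower (backgrounds 10.3% and 9.29%). Under equal medians, 2 of the 9 lay above 0 and 8 lay below the median of all genes. At an unadjusted p under 0.05 there were then 3, all lower (background 3.44%). Hrk, a BH3-only activator of cell death, had intensities of 155, 161 and 168 in wild type and of 68.0, 126, 99.1 and 90.9 in Hmga2 KO. All Hmga2 KO values were lower, and the log2 difference was -0.775 (SE 0.18, limma adjusted p = 0.226), with Hrk among the dimmest 40% of genes. Bnip3, which acts in the removal of mitochondria, had intensities of 3300.3, 4215 and 4206 in wild type and of 2448, 3244, 2407 and 2922 in Hmga2 KO, again without overlap. Its log2 difference was -0.51 (SE 0.14, limma adjusted p = 0.284). Bcl2l13 differed by -0.41 and Bok by -0.38, both without overlap, and Bad, the fifth gene without overlap, by -0.18. The differentiated muscle markers, as the mean of their centred log2 values, stood at 0.13, 0.73 and 0.43 in wild type and at -1.08, 0.27, -0.34 and -0.14 in Hmga2 KO, and their part in these differences was not tested.

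**Figure D5:**
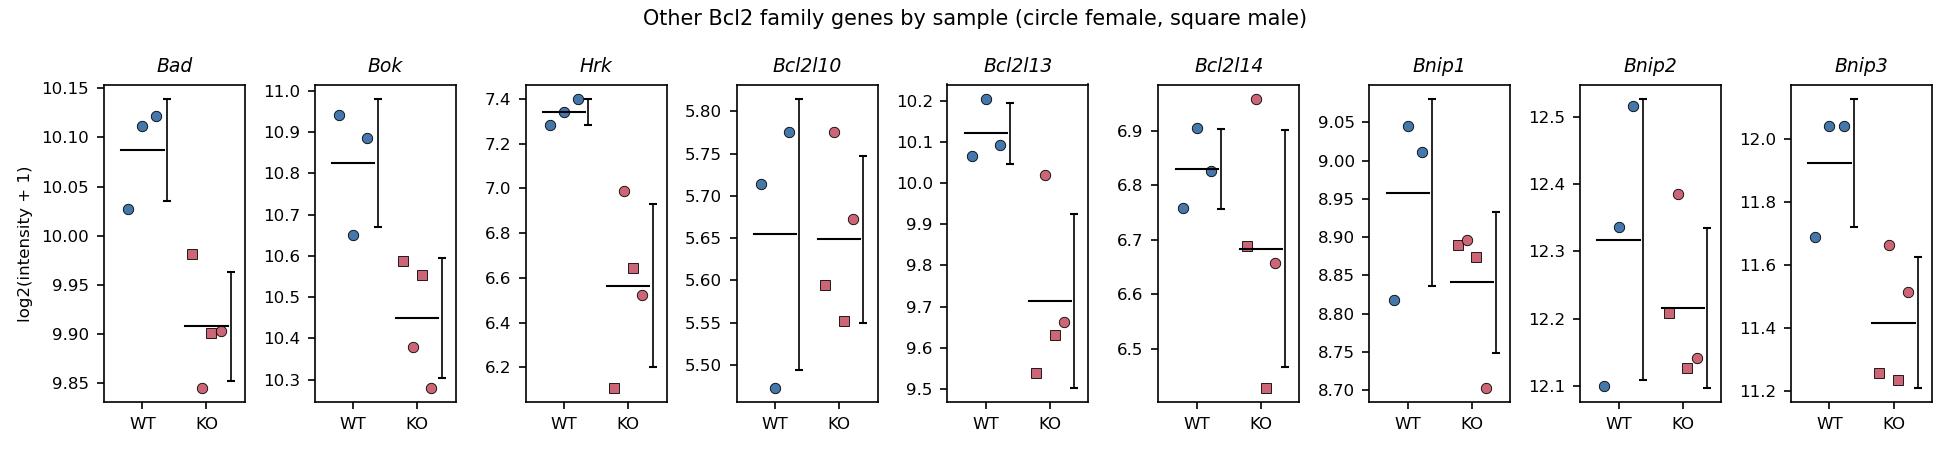
Log2(intensity + 1) of the 9 measured genes of the other Bcl2 family list in each sample. Circles are female, squares male, blue wild type and red Hmga2 KO. Lines mark the mean of each genotype and bars its SD, and each panel has its own scale. The Hmga2 KO points lie below all wild type points for Bad, Bok, Hrk, Bcl2l13 and Bnip3 and overlap with them for the other 4.

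Of 22 other p53 targets, 2 were higher and 2 lower at an unadjusted p under 0.05 (backgrounds 2.99% and 10.3%). Cdkn1a, which encodes the cell cycle inhibitor p21 and is the best known p53 target, had intensities of 9795, 12538 and 10656 in wild type and of 7582, 11028, 10584 and 9885 in Hmga2 KO. The genotypes overlapped, with Hmga2 KO replicate 1 the lowest, and the log2 difference was -0.18 (95% interval -0.51 to 0.16). Rprm, which arrests cells before mitosis, had intensities of 217, 268 and 139 in wild type and of 290.2, 566, 338 and 563 in Hmga2 KO. All Hmga2 KO values were higher, the females most, at a log2 difference of 1.06 (95% interval 0.41 to 1.72, limma adjusted p = 0.274). Trp53i11 had intensities of 1011, 420.3 and 1393 in wild type and of 451, 362, 286 and 316 in Hmga2 KO. Wild type replicate 2 lay among the Hmga2 KO values, and the log2 difference was -1.27 (95% interval -2.07 to -0.46, limma adjusted p = 0.284). Triap1, a small mitochondrial survival protein, differed by -0.35 and the epoxide hydrolase Ephx1 by 0.60. Ephx1 had an unadjusted p of 0.0489 in limma, and its difference was 0.38 without wild type replicate 1 and 0.475 in females alone (unadjusted p = 0.109 in limma). Of the 22 targets, 13 lay above and 9 below 0, while 32.4% of all genes lay above 0.

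Of 19 other p53 regulators, 1 was higher and 3 were lower at an unadjusted p under 0.05, against the same backgrounds. The acetyltransferase Ep300, a coactivator of p53, differed by 0.28, and the acetyltransferase Kat5 by -0.30. Wrap53, which encodes a telomerase protein, differed by -0.325 and the checkpoint kinase Chek1 by -0.31. Limma adjusted p-values of these 4 ranged from 0.293 to 0.364. Of 30 other caspase, apoptosome and death receptor genes, 1 was higher and 5 were lower at that threshold (backgrounds 2.99% and 10.3%). Dapk1, a death-associated kinase, had intensities of 914, 1028 and 635 in wild type and of 1544, 1352, 1778 and 1921 in Hmga2 KO. All Hmga2 KO values were higher, at a log2 difference of 0.955 (95% interval 0.54 to 1.37), and its limma adjusted p of 0.194 was the smallest among all pathway genes. The death receptor adaptor Traf2 differed by -0.30, and Aifm1 and Endog, which leave mitochondria during cell death, by -0.36 and -0.28.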

How the data were processed

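The authors deposited probe set intensities on a linear scale for 45101 probe sets of 7 Affymetrix arrays, hybridised with biotin-labelled cRNA per the labels' protocols. The medians of the arrays are identical, so they share a scale. The sources used here do not give the summarization, background correction or software of the authors. The platform annotation table gave the gene names: 34945 probe sets had 1 gene, 932 had several and were not used, 9160 were unnamed and 64 were controls. Of the 34945, 34741 had an identifier among RefSeq genes of GRCm38.p6, and 0 symbols changed.

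Values were taken as log2(intensity + 1), which understates folds of dim genes. Genotypes were compared by lmFit and eBayes in limma 3.58.1 (R 4.3.3) without a covariate, with Benjamini-Hochberg adjustment over 18193 genes at 0.05, and males and females in a 3-group fit. The number of arrays limits the precision. The scripts were tested on simulated data. Genes of the list, its role classes, the other pathway genes and the markers were chosen with earlier results of these data known. Values in every sample are given for Mdm2, Mdm4, Bbc3, Pmaip1, Bcl2, Bcl2l1 and Mcl1, for genes with an unadjusted p under 0.05 or no overlap, and for the 2 largest differences of each class. Other pathway genes are named at an unadjusted p under 0.05, at most 4 per list, with Cdkn1a. Bad was named after its values were seen. Trp53 and Bax are not analysed here.

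Alternatives tried were a model with sex, the 5 females only, a block for the replicate number, each sample left out, equal medians, quantile normalization, a filter on the dimmest 40%, other choices of probe set (their mean, or the most variable), a pseudocount of 16, a trended and robust prior, array weights and an adjusted p of 0.1. Leaving out wild type replicate 2 with Hmga2 KO replicate 1, and blocks for the numbers of other labels were added after seeing the data.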

Additional observations from a re-analysis of the deposited data

Results flagged for a closer look

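Within the 4 Hmga2 KO samples, 3 of the 48 genes had a sample far from the others, judged by the gap to its neighbour as a share of the range of log2 values against Dixon's 95% critical value. Chance gives such a gap in about 1 of 20 groups. For Xpc, replicate 2 was the highest, with a gap of 0.903 of the range. For Tigar, replicate 3 was the lowest, with a gap of 0.895, and its intensities were 2716, 2677, 2179 and 2742 in replicates 1 to 4. For Birc3, replicate 3 was the lowest, with a gap of 0.865.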

How the results depend on the processing

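With 3 and 4 arrays, and lowest intensities of 33.2 to 36.7, differences near the spread between samples were not detectable. Genes called numbered 5. They were 8 with equal medians, 16 without wild type replicate 2 and Hmga2 KO replicate 1 and 9 at an adjusted p of 0.1, and 2 to 17 when 1 sample was left out (17 without Hmga2 KO replicate 2, 3 without Hmga2 KO replicate 3 or wild type replicate 1, 2 without wild type replicate 3). Whether the replicate numbers pair the samples could not be decided, since deviations of same-numbered samples correlated at 0.36, 0.43 and -0.16. The first 2 were the largest of any wild type and Hmga2 KO samples, the next being 0.196, while the third was below 0. With the replicate number of the titles as a block, 99 genes were called, 1 of them in the set, Btg2, at a limma adjusted p of 0.0471. Hmga2 KO replicate 4 had no wild type partner in that block. A sample without a partner adds nothing to the genotype difference in such a fit. The labels number the samples in other ways too, and disagree for Hmga2 KO replicate 2, which shares a number with wild type replicate 2 in the description but not in the source name. For those numbers, tried after seeing the data, pairing could not be decided either. Wild type replicate 3 and Hmga2 KO replicate 4, which share one, correlated at -0.07, and replicates 1, which also share one, at 0.36. As a block, the description number gave 27 called genes, 0 of them in the set (Btg2 at a limma adjusted p of 0.0857), and 9 lower pathway genes. The source name number gave 138 called genes, 1 of them in the set, Perp (1.599, limma adjusted p = 0.0497, Btg2 at 0.140), 2 called pathway genes, Trp53i11 (-1.65) and Hrk (-1.03), 9 lower ones, and a median of 0.161 for the regulators. In no other alternative was a gene of the set called. Genes of the set with an unadjusted p under 0.05 numbered 12 with equal medians and 5 to 9 with a sample left out. Among the other pathway genes, 4 were higher. They were 9 with equal medians, 8 without both samples, 7 with the most variable probe set and 7 with quantile normalization. With a sample left out they were 2 to 5, 2 being without Hmga2 KO replicate 3. Among all 18193 genes at an unadjusted p under 0.05, 544 were higher, 1330 with equal medians, 657 without both samples and 992 with quantile normalization. The 14 lower pathway genes became 5 with equal medians, 5 in females, 9 with quantile normalization and 7 with sex as a covariate. With a sample left out they became 9 to 14, 9 being without Hmga2 KO replicate 3 or wild type replicate 3. Of all genes, 1879 were lower, 625 with equal medians, 844 in females, 925 with quantile normalization and 933 with sex as a covariate. With samples left out, 0 to 1 of the other pathway genes were called, the 1 being without both, Trp53i11 (-1.89, limma adjusted p = 0.0146). Genes called between sexes went from 7 to 3 without the dimmest 40%. The median log2 difference of the set was 0.106 with equal medians, 0.082 with the most variable probe set, 0.077 with quantile normalization and -0.011 to 0.029 with samples left out. With equal medians it was 0.159 for regulators, 0.11 for arrest, 0.086 for repair, 0.154 for death-promoting and 0.066 for survival genes. With samples left out, singly or both, it was -0.043 to 0.153 for regulators (0.153 without Hmga2 KO replicate 2), -0.04 to 0.12 for arrest genes and -0.033 to 0.064 for death-promoting genes, with 0.12 and -0.033 being without both. It was also 0.162 for regulators without the dimmest 40%, -0.175 for repair and 0.084 for survival genes with the most variable probe set, and 0.127 for death-promoting genes with quantile normalization. With samples left out, differences ranged from -0.346 to 0.005 for Gadd45a, from -0.284 to 0.051 for Birc2 and from -0.257 to 0.038 for Cdkn1a, turning only without both samples, and from -0.209 to 0.015 for Bcl2l1, turning only without wild type replicate 1. With 1 sample left out, they ranged from -0.233 to -0.004 for Bcl2, -0.242 to -0.019 for Birc3, 0.008 to 0.067 for Mcl1 and 0.166 to 0.324 for Trp53inp1. Bcl2 turned to 0.03 with equal medians, 0.024 with the mean and 0.198 with the most variable probe set and 0.059 with quantile normalization, and Bcl2l1 to 0.066, 0.137, 0.387 and 0.043 in the same order. The cause was not tested in any of these.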
